A study of Mus musculus with 21 samples.

Results

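The IkB family comprised 6 genes, Nfkbia, Nfkbib, Nfkbie, Nfkbiz, Nfkbid and Bcl3, and its members were the 14 probe sets annotated with these symbols and no other, of 45101 on the array. Of the 14 probe sets, 12 of 5 genes had enough signal to be tested among 25110 probe sets. The probe set of Nfkbid and 1 of the 2 probe sets of Nfkbib did not, and their values are given without a test. The cells were cultured aortic smooth muscle cells of C57BL/6J mice (male, 10 to 12 weeks old), and 21 Affymetrix arrays were run. All cells were fed 24 h before stimulation and received their stimuli in PBS. The groups at 24 h were PBS control (4 arrays), 10 µg/ml of an antibody that activates LTBR, the receptor of lymphotoxin beta (4 arrays), 1 ng/ml TNFalpha (4 arrays) and both agonists together (3 arrays). Control, anti-LTBR and TNF were also run once each at 2 h and at 6 h. Arrays carried a replicate number from 0 to 3. The combination has the numbers 1 to 3, and all arrays at 2 h and 6 h have the number 0. The labels do not say whether the numbers stand for separate cultures or animals, and the p-values cover the spread between arrays only, which may be technical.

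IkB proteins bind NF-kB dimers through ankyrin repeats. The cytoplasmic inhibitors IkBalpha (Nfkbia), IkBbeta (Nfkbib) and IkBepsilon (Nfkbie) hold the dimers outside the nucleus until the IkB kinase complex marks them for degradation by the proteasome. Nfkbia and Nfkbie are themselves transcribed by NF-kB, which closes a negative feedback loop. The nuclear members Bcl-3 (Bcl3), IkBzeta (Nfkbiz) and IkBNS (Nfkbid) bind mainly p50 or p52 homodimers on DNA and change the transcription of selected targets. TNF signals chiefly through the fast canonical pathway, and LTBR through both the canonical and the slower non-canonical pathway. Arrays measure mRNA, so the amount of IkB protein was not measured here.

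Promoter sequences from RefSeq (GRCm38.p6) were searched for the kB consensus, the 10-base sequence that NF-kB binds. Of the 6 genes, 5 matched an entry by symbol, with 7 windows of 300 bases (250 before and 50 after the transcription start). Nfkbiz is named only. A match on either strand was found in the windows of Nfkbia, Nfkbie and Bcl3 and in 1 window of Nfkbid, so 4 of the 7 windows held at least 1, against 4.51% of all 32851 windows. The window of Nfkbib held no match to these letters. The Nfkbid window held 2 matches, on opposite strands and not overlapping, and 0.554% of all windows held at least 2. A match describes the letters and does not show that NF-kB binds there. Whether a match goes with a change in signal was not tested. The windows of Nfkbid are not printed. The lines below, for Nfkbia, Nfkbie and Bcl3, give bases −130 to 20 around the start. They read 5′ to 3′ on the strand of the gene, with the match in capitals.
Nfkbia, chr12:55492628-55492777, minus strand: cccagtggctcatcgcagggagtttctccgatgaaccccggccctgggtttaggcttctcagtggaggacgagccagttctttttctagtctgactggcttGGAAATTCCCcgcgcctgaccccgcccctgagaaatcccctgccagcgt
Nfkbie, chr17:45555570-45555719, plus strand: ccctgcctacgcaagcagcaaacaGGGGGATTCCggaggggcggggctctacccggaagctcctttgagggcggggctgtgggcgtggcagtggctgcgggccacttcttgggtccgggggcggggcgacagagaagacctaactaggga
Bcl3, chr7:19822736-19822885, minus strand: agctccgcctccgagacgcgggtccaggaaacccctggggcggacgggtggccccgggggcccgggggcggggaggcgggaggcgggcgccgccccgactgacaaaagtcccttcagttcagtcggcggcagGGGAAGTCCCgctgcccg
The matches begin at base −29 in Nfkbia, at base −106 in Nfkbie and at base 3, just inside the transcript, in Bcl3. The consensus reads on the strand shown in Nfkbie and on the opposite strand in Nfkbia and Bcl3.

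The deposited signals had a trimmed mean of 500 on every array and array medians between 106.8 and 139. The number of arrays limits the precision. Smooth muscle markers were bright on all arrays, with 5 of 6 above the median on every array and a summed signal of 29590 to 45620. Arrays with the number 0 stood apart. On them the 7 endothelial markers summed to 14340 to 17830, against 675 to 2030 on the numbers 1 to 3, and the mature smooth muscle marker Myh11 had a mean of 137.8 at 24 h, against 1805. Cnn1 (1518 against 2169) and Des (113.6 against 249) were also lower on number 0 at 24 h. Acta2 (17800 against 18210), Tagln (13380 against 13150) and Smtn (2275 against 2171) differed little. Of the endothelial markers, Kdr was lower on number 0 (223.2 against 266.1) and the others were higher. The 6 macrophage markers summed to 1049 to 1285 on number 0 and 1421 to 4333 on the others, the 3 fibroblast markers to 3156 to 9955 over all arrays, and none of the 4 lymphocyte markers passed the median on any array. Within the numbers 1 to 3, the marker sums of the combination overlapped with those of the control for each list. The part of these markers in the results below was not tested, and since the combination has no array with the number 0, its values on the numbers 1 to 3 alone are also given.

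Nfkbia, which encodes the main IkB of the feedback loop, rose with every treatment at 24 h on 4 of its 5 probe sets, and with both agonists on all 5. On the probe set with the largest change, 1448306_at, the 4 control arrays had signals of 1385.4, 1089.7, 928.2 and 704.9 (numbers 0 to 3). With anti-LTBR they were 3583.6, 3555.2, 3340.4 and 2946.9. With TNF they were 3407.1, 4413.4, 3868.2 and 3187.1, and with both agonists 6936.6, 5752.7 and 5088.8 (numbers 1 to 3). The control arrays lay below all others, the combination arrays lay above all others, and the arrays of the single agonists overlapped. In limma's fit of all 15 arrays the log2 change was 1.74 ± 0.17 (SE; 3.33-fold) with anti-LTBR, adjusted p = 0.000858. It was 1.88 ± 0.17 (3.67-fold) with TNF, adjusted p = 9.44e-05. With both agonists it was 2.55 ± 0.19 (5.84-fold), adjusted p = 4.76e-06, and 2.70 on the numbers 1 to 3 alone. In bulk RNA of this kind, more RNA per cell and a larger share of responding cells cannot be told apart.

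The Nfkbia probe set with the highest signal, 1420088_at, rose over a narrower range. Its mean signal was 7051 ± 1240 (SD, n = 4) in the control, 13720 ± 1571 with anti-LTBR (n = 4), 14230 ± 1730 with TNF (n = 4) and 15890 ± 1982 with both (n = 3). The control arrays again lay below all treated arrays, while the 3 treated groups overlapped with each other. Fold changes were 1.96, 2.03 and 2.27, with adjusted p of 0.00686, 0.00135 and 0.000305. The anti-LTBR call on this probe set ended with arrays scaled to equal medians (adjusted p = 0.0846) and in a fit of those groups alone (0.0789). The 5 Nfkbia probe sets thus disagreed on size. For the combination the fold change was 3.71 on 1438157_s_at and 4.98 on 1449731_s_at, both called, at mean signals of 7345 and 4695 over the 15 arrays. The probe set 1420089_at, with a mean of 556, was 2.61-fold higher with both agonists (adjusted p = 0.000701). With the single agonists its log2 changes of 0.64 ± 0.17 and 0.67 ± 0.17 were called only with the replicate number as a block in the fit (adjusted p = 0.00836 and 0.00475, against 0.351 and 0.212 without it). The TNF change was also called on leaving out TNF number 0 (adjusted p = 0.0483).

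**Figure D1:**
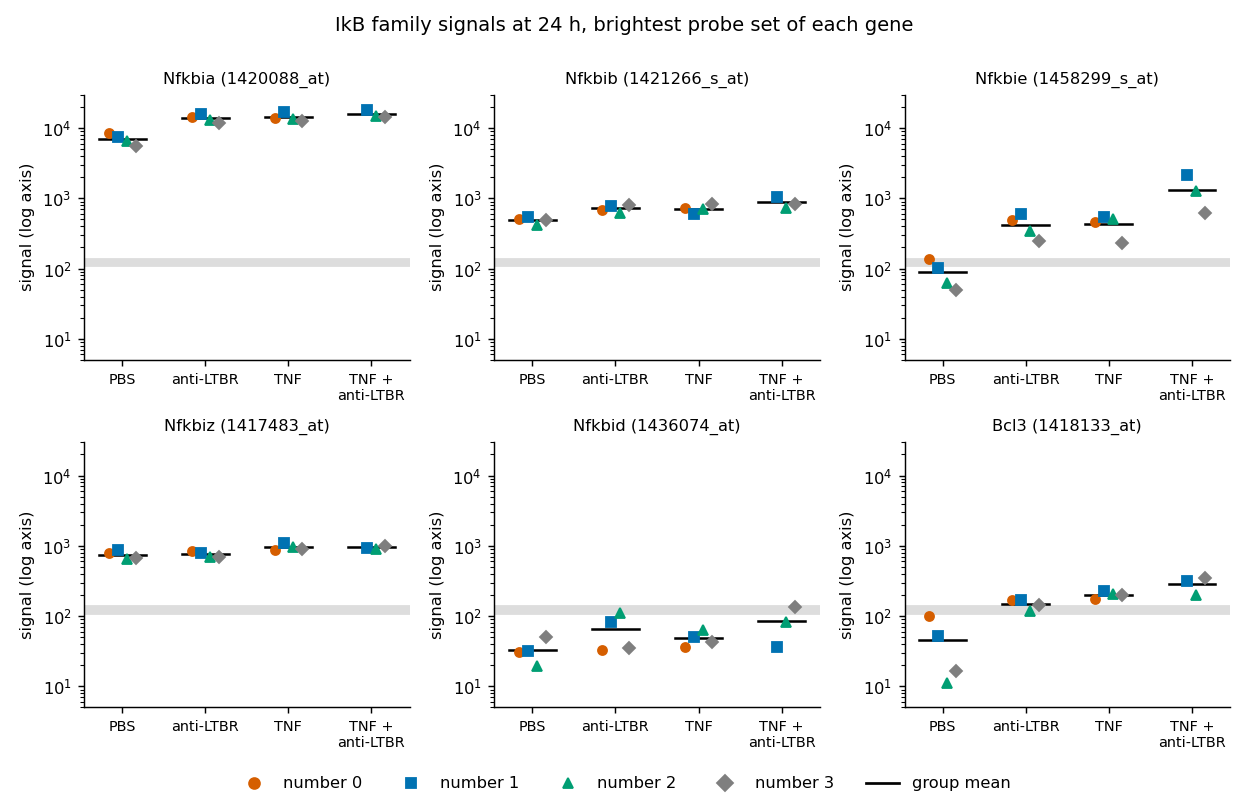
Signal at 24 h (log axis) on the brightest probe set of each gene, with 1 point per array, its shape giving the replicate number, and a line at the group mean; the grey band spans the medians of the arrays. Control arrays of Nfkbia, Nfkbib, Nfkbie and Bcl3 lie below all treated arrays, Nfkbiz arrays span 658.6 to 1097.2, and Nfkbid stays at or below the band. The share of all probe sets with such a gap is not given, and Nfkbie and Bcl3 passed the filter mainly through treated arrays.

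Nfkbie, whose product IkBepsilon damps NF-kB with a delay, had the largest log2 change of the family with both agonists. On 1458299_s_at the control signals were 138.3, 103.3, 61.7 and 49.1 (numbers 0 to 3), near or below the medians of their arrays. Anti-LTBR gave 498.4, 593.0, 347.1 and 243.0, and TNF 465.4, 539.0, 507.3 and 234.3. Both agonists gave 2117.8, 1254.4 and 613.5. No treated array reached down to the control range, every combination array lay above every single-agonist array, and the number 3 was the lowest array in each group. With both agonists the log2 change was 3.69 ± 0.44 (12.9-fold), adjusted p = 0.000344, and 3.92 on the numbers 1 to 3 alone (adjusted p = 0.000994). With TNF it was 2.21 ± 0.40 (4.63-fold), adjusted p = 0.036, and with anti-LTBR 2.15 ± 0.40 (4.43-fold), adjusted p = 0.0604, which is not under the threshold of 0.05.

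The spread behind these Nfkbie values lay largely between replicate numbers. With the number as a block the SE fell to 0.16 and the adjusted p to 3.28e-06 for TNF and 7.15e-06 for anti-LTBR. Without the block, the TNF call was lost on leaving out control number 1, 2 or 3, TNF number 0, 1 or 2, anti-LTBR number 2 or combination number 2, with adjusted p between 0.0601 and 0.153, and the anti-LTBR change was called on leaving out control 0, TNF 3, combination 1 or combination 3. The TNF call also ended on the numbers 1 to 3 alone, with equal medians, a pseudocount of 50, no filter, no variance trend or a fit of those groups alone (adjusted p 0.0506 to 0.0806). The second probe set of Nfkbie, 1431843_a_at, ran from 32.2 to 112.6 in the control and from 302.9 to 676.4 with both agonists. Its log2 change was 2.58 ± 0.33 (6-fold) with both agonists, adjusted p = 0.000683. It was 1.41 ± 0.31 with anti-LTBR and 1.45 ± 0.31 with TNF (adjusted p = 0.153 and 0.0947, and 0.0013 and 0.000844 with the block). The TNF change was called on leaving out control 0 (adjusted p = 0.031).

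Nfkbib, which encodes IkBbeta, an inhibitor with a slower turnover than IkBalpha, changed less. On 1421266_s_at the control arrays had signals of 500.6, 534.0, 415.5 and 497.1. Anti-LTBR gave 676.9, 785.5, 621.1 and 790.6, TNF gave 728.2, 598.5, 694.8 and 825.0, and both agonists gave 1059.5, 732.6 and 828.5. Again the control arrays lay below all treated arrays, and the treated groups overlapped. The combination was 1.76-fold above the control (log2 0.82 ± 0.15), adjusted p = 0.00805. This call ended without combination number 1 (adjusted p = 0.0543) and in a fit of those groups alone (0.0511). The single agonists gave log2 changes of 0.55 ± 0.14 and 0.53 ± 0.14, called only with the block (adjusted p = 0.0129 for anti-LTBR and 0.012 for TNF, against 0.28 and 0.243 without it). The other Nfkbib probe set, 1446718_at, was above the array median on 3 of 21 arrays and ranged from 5.4 to 140.1 at 24 h.

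Bcl3, the nuclear member that can act as a co-activator with p50 or p52, rose with TNF and with both agonists from a low control level. Its control signals on 1418133_at were 101.6, 51.8, 11.2 and 16.3, all below the medians of their arrays. They were 167.7, 167.7, 118.0 and 142.0 with anti-LTBR, 175.9, 228.1, 202.8 and 199.1 with TNF, and 316.4, 197.2 and 349.0 with both. TNF arrays lay above all anti-LTBR arrays, and the combination overlapped with TNF through its number 2. The log2 change was 2.70 ± 0.44 with both agonists (adjusted p = 0.00397) and 2.24 ± 0.40 with TNF (adjusted p = 0.0315). With anti-LTBR it was 1.82 ± 0.40 (adjusted p = 0.159, and 0.00704 with the block). The number 0 pair had the smallest changes: TNF minus control was 0.74 there and 1.94 to 3.32 on the other numbers.

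The size of the Bcl3 change rested on dim controls, and a pseudocount of 50 in place of 10.2 gave log2 changes of 1.15, 1.50 and 1.89 for anti-LTBR, TNF and both. The TNF call was lost on leaving out control 2 or 3, anti-LTBR 1, 2 or 3, TNF 1, 2 or 3, or combination 3 (adjusted p 0.0501 to 0.131), and in a fit of those groups alone (0.331), where the combination also missed the threshold (0.0817). Without control 0 the anti-LTBR change was called (2.27, adjusted p = 0.00898), as it was on the numbers 1 to 3 alone (2.21, adjusted p = 0.0453).

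Nfkbiz, the inducible nuclear member that macrophages need for Il6 and Lcn2 transcription, changed little at 24 h. On 1417483_at the control arrays had signals of 780.1, 860.2, 658.6 and 680.0, and anti-LTBR arrays 841.6, 790.9, 696.7 and 688.7, which overlapped. TNF arrays had 876.4, 1097.2, 946.6 and 890.9 and combination arrays 935.8, 904.1 and 999.1, all above both of these groups. The log2 change was 0.02 ± 0.11 with anti-LTBR, 0.35 ± 0.11 with TNF and 0.35 ± 0.12 with both (adjusted p = 1, 0.533 and 0.217). With the block, TNF and the combination were called (adjusted p = 0.0294 and 0.0163) and anti-LTBR was not (0.938). TNF minus anti-LTBR was 0.33 ± 0.11, adjusted p = 1 (0.116 with the block), so the difference between the agonists did not pass the test. The other probe sets, 1448728_a_at and 1457404_at, had TNF changes of 0.39 ± 0.15 and 0.30 ± 0.22 and were not called in any comparison with or without the block.

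Nfkbid, known from lymphocytes and macrophages, stayed dim. Its probe set 1436074_at was above the array median on 0 of 21 arrays. At 24 h it read 30.7, 31.8, 19.7 and 49.6 in the control, 33.1, 81.2, 110.0 and 34.8 with anti-LTBR, 36.6, 49.6, 63.4 and 42.5 with TNF, and 35.9, 81.4 and 135.6 with both. The 4 groups overlapped.

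Over the family, each treatment was read against all probe sets tested. With anti-LTBR 4 of the 12 member probe sets rose, all of Nfkbia, where 0.143% of all probe sets tested did (9 of 12 against 1.89% with the block). With TNF 6 of 12 rose, of Nfkbia, Nfkbie and Bcl3, against 0.251% (10 of 12 against 2.3% with the block). With both agonists 9 of 12 rose, of Nfkbia, Nfkbib, Nfkbie and Bcl3, against 1.48% (10 of 12 against 7.05% with the block). No member fell in limma's test, at an adjusted or an unadjusted p, where 0% of probe sets were called lower with anti-LTBR, 0% with TNF and 0.434% with both (1.28%, 1.81% and 8% with the block). The median log2 change of the 12 probe sets was 1.16 with anti-LTBR, 1.23 with TNF and 1.64 with both, beside −0.01, −0.02 and −0.01 over all probe sets tested. All 3 comparisons use the same control arrays. The 12 are not all members, and probe sets of 1 gene share their transcript. Bcl3 and Nfkbie 1431843_a_at were above the median on 0 of 4 control arrays and Nfkbie 1458299_s_at on 1 of 4, so these 3 were tested through their treated arrays and their share of the counts and medians is no support. Where the median had to be passed on all arrays, which leaves out these 3 and Nfkbiz 1457404_at, the counts were 4, 4 and 6. The share of all probe sets called under that filter is not given here, so these counts have no background beside them.

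**Figure D2:**
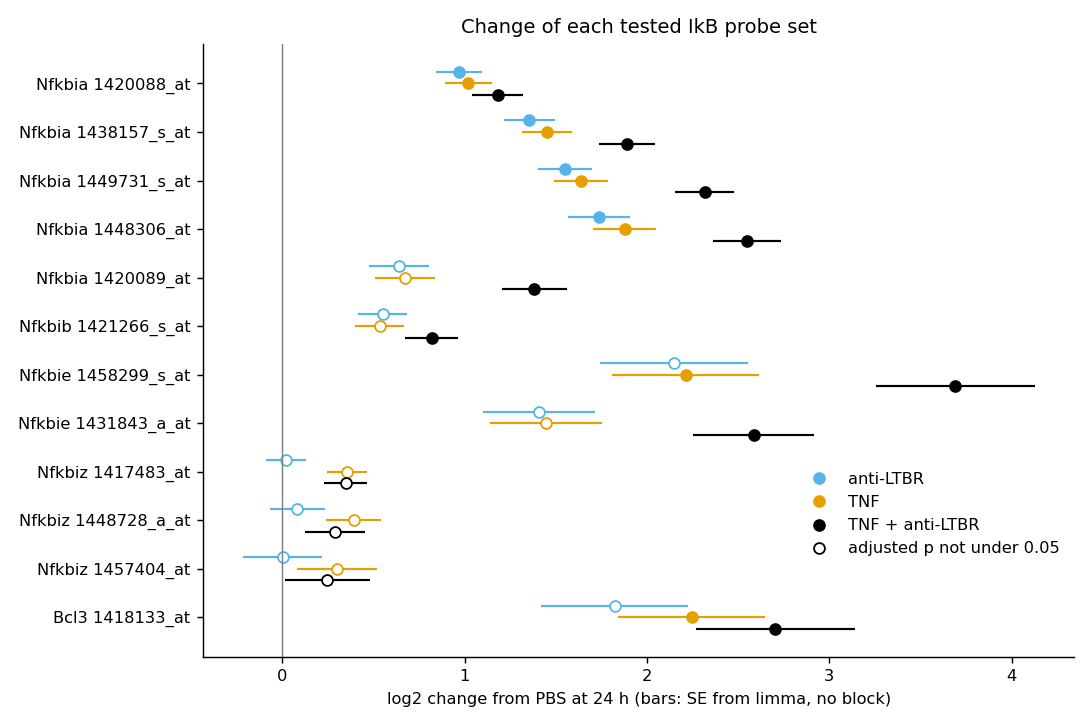
Log2 change from the PBS control at 24 h for the 12 tested probe sets, with bars of 1 SE from the fit without a block and open symbols where the adjusted p was not under 0.05. Nfkbie 1458299_s_at and Bcl3 have the widest bars, the largest change is that of Nfkbie 1458299_s_at with anti-LTBR and with both agonists and of Bcl3 with TNF, the 5 Nfkbia probe sets differ in size, and the Nfkbiz probe sets lie between 0 and 0.39.

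The single agonists were next compared with each other. TNF and anti-LTBR differed by no more than 0.42 on the log2 scale on any of the 12 probe sets. No member was called in limma's fit, where 0.0159% of all probe sets were called higher with TNF and 0% lower. At an unadjusted p under 0.05, 1 member was higher with TNF, as 1.07% of all probe sets were. With the block no member was called either, where 0.295% of all were called higher and 0.291% lower. There 2 members were higher at an unadjusted p under 0.05, as 4.62% of all were. The difference was 0.14 ± 0.17 on Nfkbia 1448306_at, 0.06 ± 0.40 on Nfkbie 1458299_s_at and 0.42 ± 0.40 on Bcl3. These errors leave room for a difference in either direction on Nfkbie, and the missed threshold does not show that the agonists act alike.

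Adding the second agonist raised Nfkbia and Nfkbie above each single agonist in the fit with the replicate block. Compared with TNF, 0 of 12 member probe sets were called without the block (0.00796% of all; at an unadjusted p under 0.05, 6 members and 2.75% of all were higher) and 6 with it, 4 of Nfkbia and 2 of Nfkbie (2.42% of all). Compared with anti-LTBR, 0 were called without the block (0.263%; at an unadjusted p under 0.05, 7 members and 2.89% of all were higher) and 6 with it, of the same genes (1.91%). On Nfkbie 1458299_s_at the combination exceeded TNF by 1.48 ± 0.44 on the log2 scale, adjusted p = 0.813. With the block the difference was 1.61 ± 0.18, adjusted p = 0.000569. Over anti-LTBR the difference was 1.54 ± 0.44 (adjusted p = 0.374), and the blocked fit gave 1.67 ± 0.18 (adjusted p = 0.000282). The combination was higher in 3 of 3 number pairs in each case, by 1.29 to 1.95 over TNF.

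On Nfkbia 1448306_at the combination exceeded TNF by 0.67 ± 0.19 (adjusted p = 0.681, and 0.00403 with the block) and anti-LTBR by 0.81 ± 0.19 (adjusted p = 0.139, and 0.00113 with the block). The latter was called without the block on leaving out control number 3 (adjusted p = 0.0471). On 1449731_s_at the difference from anti-LTBR, 0.77 ± 0.16 (adjusted p = 0.0785), was called on leaving out control number 0 or 3 (0.0254 and 0.045), on the numbers 1 to 3 alone (0.0409) and after quantile normalization (0.0316). The Nfkbia probe set 1420088_at differed by only 0.16 ± 0.14 from TNF and 0.21 ± 0.14 from anti-LTBR and was not called in either fit (adjusted p = 0.134 and 0.0665 with the block). For Nfkbib the combination exceeded TNF by 0.28 ± 0.15 and for Bcl3 by 0.46 ± 0.44. Neither was called with or without the block, nor was Bcl3 against anti-LTBR (0.88 ± 0.44). For Nfkbiz the combination and TNF differed by −0.01 ± 0.12.

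The interaction asks whether the combination differs from the sum of the single changes. On the log2 scale 0 of 12 member probe sets were called without the block, as 0% of all probe sets were, and at an unadjusted p under 0.05, 5 members were lower, as 0.653% of all were. With the block, 2 Nfkbia probe sets were called lower, against 0.0239% of all probe sets. Their values were −0.77 ± 0.09 on 1420088_at (adjusted p = 0.0145) and −0.91 ± 0.13 on 1438157_s_at (adjusted p = 0.0309). The other Nfkbia probe sets ran from −1.02 ± 0.16 (1448306_at, adjusted p = 0.0545) to 0.00 (1420089_at). The interaction of Nfkbie 1458299_s_at was −0.67 ± 0.59 on the log2 scale, and −0.54 ± 0.24 with the block. Bcl3 had the lowest value without the block, −1.365 ± 0.594, and −1.218 ± 0.484 with it. Neither of these was called in either fit. With the block, 6 members were lower at an unadjusted p under 0.05, as 4.26% of all were.

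On the linear signal the genes fell in another order, so the sign of the departure depends on the scale. For Nfkbie 1458299_s_at the gain with both agonists was 2.18, 1.63 and 1.49 times the sum of the single gains for the numbers 1, 2 and 3, and for 1431843_a_at 1.86, 1.32 and 1.09 times, although both have interactions below 0 on the log2 scale. For Nfkbia 1420088_at the same ratio was 0.614, 0.619 and 0.666. For Nfkbia 1448306_at it was 1.01, 0.901 and 0.928, and for 1438157_s_at 0.832, 0.706 and 0.794. For 1449731_s_at it was 0.993, 0.868 and 0.959, and for 1420089_at, the dimmest Nfkbia probe set, 1.56, 0.993 and 1.08. The ratio was thus lowest on the Nfkbia probe sets with the highest mean signals, 1420088_at (12510) and 1438157_s_at (7345). The part of signal level in these ratios was not tested. Nfkbib varied between numbers, at 1.66, 0.654 and 0.533, and Bcl3 at 0.906, 0.623 and 1.08. Nfkbiz 1417483_at had 0.451, 0.753 and 1.45, with TNF gains of 237, 288 and 210.9 and anti-LTBR gains of −69.3, 38.1 and 8.7 in signal. With 3 numbers these ratios are given as values without a test.

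**Figure D3:**
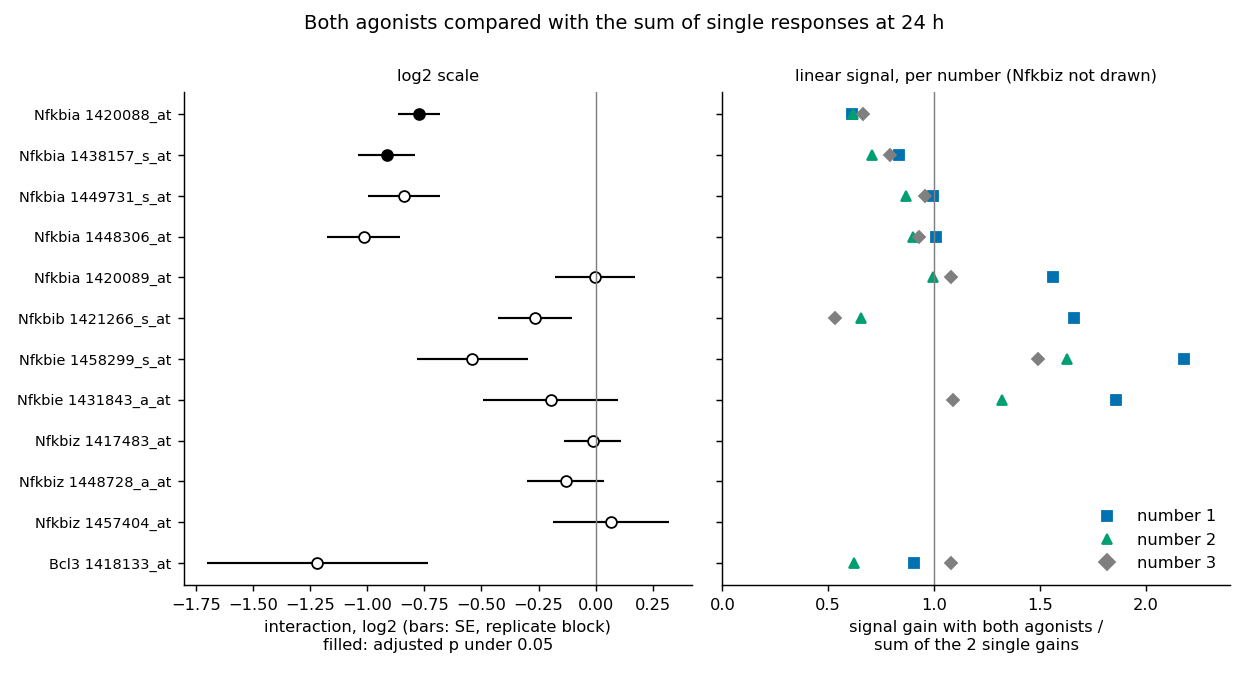
Left, interaction on the log2 scale with the replicate block (bars of 1 SE, filled where the adjusted p was under 0.05). Right, the gain in linear signal with both agonists over the sum of the single gains, 1 point per replicate number, with Nfkbiz not drawn. Both Nfkbie probe sets lie above 1 on the right for all 3 numbers and below 0 on the left, and Nfkbia 1420088_at lies below 1 on the right and below 0 on the left.

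At 2 h and 6 h there was 1 array a group, so a difference between a treated array and the control of that time has no replicate check. A probe set was read where the higher of the 2 arrays lay above its median, so that a dim one could pass through the treated array alone. At 2 h with TNF, 9 of the 12 member probe sets that passed were at least 2-fold higher, of Nfkbia, Nfkbie, Nfkbiz and Bcl3, where 1.51% of all probe sets were. With anti-LTBR at 2 h it was 0 of 12, against 0.598%. At 6 h it was 8 of 13 with TNF (2.04%), now with Nfkbib and without Nfkbiz, and 4 of 12 with anti-LTBR (0.786%), of Nfkbia, Nfkbie and Bcl3. Bcl3 at both times, Nfkbie 1431843_a_at at 2 h and Nfkbib 1446718_at with TNF at 6 h passed through the treated array alone. Over the probe sets whose control array was above its median, the counts were 7 of 10 with TNF and 0 of 10 with anti-LTBR at 2 h, and 7 of 11 and 3 of 11 at 6 h. The share of all probe sets under this narrower filter is not given here, so these counts have no background beside them.

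The single genes differed in their course with TNF on the number 0 arrays. Nfkbie 1458299_s_at read 208.3 in the control, 400.0 with anti-LTBR and 3128.6 with TNF at 2 h, and 187.7, 553.9 and 1186.5 at 6 h. Its log2 difference with TNF was thus 3.85 (14.4-fold) at 2 h, 2.60 (6.05-fold) at 6 h and 1.68 on number 0 at 24 h. With anti-LTBR this probe set gave 0.91, 1.51 and 1.78 over the 3 times. The other Nfkbie probe set, 1431843_a_at, did not share that course, with 0.95, 0.90 and 0.88 for anti-LTBR beside 3.58, 2.02 and 0.53 for TNF. Nfkbia 1448306_at read 1282.6, 2235.5 and 5806.5 at 2 h and 1547.1, 3353.9 and 5282.5 at 6 h in the same order. Its TNF difference was 2.17, 1.76 and 1.29 at the 3 times, and its anti-LTBR difference 0.80, 1.11 and 1.36. Of the 5 Nfkbia probe sets, 1420089_at (0.63, 0.97 and 0.37) and 1449731_s_at (0.64, 1.17 and 1.15) had their highest anti-LTBR difference at 6 h. The probe sets of a gene thus differed in their course with anti-LTBR. The TNF difference on number 0 was highest at 2 h on each of the 5 Nfkbia probe sets. At 24 h, number 0 had the lowest TNF difference on each of them. On 1420088_at the 2 h value was 0.903, below the 24 h values of 1.18, 1.027 and 1.184 on numbers 1 to 3. On 1438157_s_at it was 1.598, below 1.681 and 1.642 on numbers 2 and 3 but above 1.485 on number 1. On the other Nfkbia probe sets the 2 h value lay above all 24 h TNF values. The course on numbers 1 to 3 was not tested, as all 2 h and 6 h arrays have the number 0. The difference between the agonists at 2 h was not tested, with 1 array a group.

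Nfkbiz 1417483_at was highest at 2 h with TNF, at 1512.3 against 722.1 in the control. The TNF difference was 1.06 at 2 h, 0.36 at 6 h and 0.17 at 24 h on number 0, and with anti-LTBR it was 0.13, 0.15 and 0.11. Bcl3 read 98, 168.4 and 265.1 at 2 h and 55.3, 152.3 and 194.8 at 6 h in control, anti-LTBR and TNF. Its TNF difference was 1.35, 1.65 and 0.73 over the 3 times. Nfkbib differed by 0.07 with TNF at 2 h, 1.02 at 6 h and 0.53 at 24 h, and with anti-LTBR by −0.53, 0.49 and 0.43. Nfkbid stayed below the array median at both times, at 17.2 to 97.1. All of these arrays are among those with high endothelial markers, and the part of that in the time course was not tested.

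**Figure D4:**
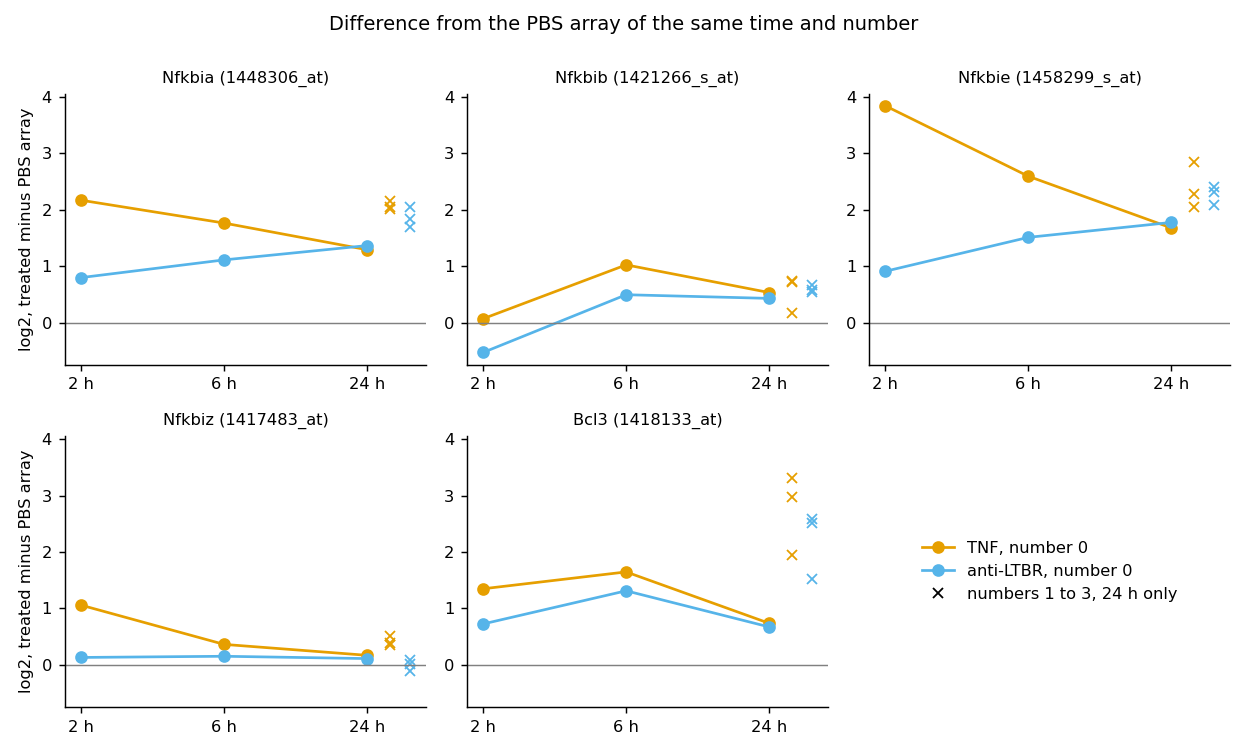
Log2 difference of the treated array from the PBS array of the same time and replicate number, with lines for number 0 (2, 6 and 24 h drawn at equal spacing) and crosses for numbers 1 to 3 at 24 h. On the probe sets drawn, the TNF lines of Nfkbia, Nfkbie and Nfkbiz are highest at 2 h. The anti-LTBR lines of Nfkbia and Nfkbie are highest at 24 h. Some other probe sets of these 2 genes have their highest anti-LTBR value at 2 h or 6 h. At 24 h number 0 lies below the crosses of the same agonist for Nfkbia, Nfkbie and Bcl3.

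The genes around the IkB proteins were read in the same fit, with 1 probe set a gene. Of the NF-kB subunits, 3 of the 4 on the array were tested. Nfkb2, the precursor of p52, rose with each treatment (log2 2.31 ± 0.24 with anti-LTBR, 1.49 ± 0.24 with TNF and 2.75 ± 0.26 with both). Relb, its non-canonical partner, rose with TNF (1.43 ± 0.18) and with both (2.09 ± 0.20). With anti-LTBR the Relb change of 0.84 ± 0.18 was called only with the block (adjusted p = 0.147, and 0.00564 with the block). Rela, the canonical partner held by IkBalpha, was called only with both agonists and the block (0.36 ± 0.12, adjusted p = 0.196, and 0.00069 with the block). Among IkB kinase subunits and activators, Chuk and Ripk1 had no probe set with that symbol alone and were not read. Of the 10 read, Traf2 rose with anti-LTBR (0.74 ± 0.12, adjusted p = 0.0302) and with both agonists (0.70 ± 0.13, adjusted p = 0.0103), and none with TNF. With the block 2, 2 and 5 of the 10 rose with anti-LTBR, TNF and both, among them Ikbke with each treatment, where 1.89%, 2.3% and 7.05% of all probe sets rose. Of 9 tested genes of IkB ubiquitination and degradation none was called without the block, and with it Ube2d1 rose and Ube2d2a fell with both agonists, which is 1 of 9 in each direction beside 7.05% of all probe sets higher and 8% lower. Their median changes were 0.05, 0.03 and −0.01.

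Of 6 other feedback inhibitors, Tnfaip3, which encodes the deubiquitinase A20, and its partner Tnip1 rose with both agonists (2.0 ± 0.27 and 1.15 ± 0.13, adjusted p = 0.00115 and 0.000305). Tnip3 and Traf3 had no probe set with that symbol alone and are not among the 6. None was called with a single agonist without the block, and 2 with anti-LTBR and 3 with TNF were with it (1.89% and 2.3% of all probe sets). Of 4 genes that need Nfkbiz in macrophages 2 were tested. Lcn2, an iron-binding secreted protein, rose with both agonists (3.29 ± 0.66, adjusted p = 0.0178). With TNF its change of 2.96 ± 0.61 had an adjusted p of 0.0838, and 5.41e-07 with the block. With anti-LTBR, where Nfkbiz was not called, the Lcn2 change of 0.945 ± 0.614 was called only with the block (adjusted p = 0.00834). The Il6 change with anti-LTBR was −0.033 ± 0.361 and was not called in either fit. Il6 changed by 1.08 ± 0.36 with TNF (adjusted p = 0.671, and 0.00496 with the block).

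Across the 15 treated arrays, each taken as a difference from the control of its time and number, Nfkbia and Bcl3 varied most alike within the family (Pearson r = 0.799), then Nfkbia and Nfkbie (0.679). Nfkbiz and Nfkbib had the lowest value, −0.073. These points share control arrays, so the values are descriptions. Likeness to other genes was read on the brightest probe set of each gene. For Nfkbia this was 1420088_at, which had the smallest change of its probe sets with both agonists. Of 12446 genes, those most like Nfkbia on it were Parp3 (0.939) and Tgif1 (0.928). Those most like Nfkbie (1458299_s_at) were Parp14 (0.922) and Rsl1 (0.909), and those most like Bcl3 were Icam1 (0.927) and Gjb5 (0.914). For Nfkbib they were H2-T3 (0.896) and Kalrn (0.852), and for Nfkbiz Rnd1 (0.868) and Polb (0.853).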

How the data were processed

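The authors deposited linear signal intensities, made with GCOS 1.4 per the submitters' processing notes. How probes were summarized and background corrected is not given in the sources used here. Each array has a mean of 500 after removing the highest and lowest 2 percent. Values were used as deposited, as log2(signal + 10.2), 10.2 being the 10th percentile over the arrays at 24 h, so fold changes of dim probe sets are understated. Gene symbols came from the platform annotation. A probe set was tested if it exceeded the median of its array on 3 or more of the 15 arrays at 24 h. The 64 control probe sets were left out.

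limma 3.58.1 in R 4.3.3 fitted all 15 arrays with a variance trend (11 residual degrees of freedom, 8 with the block), tested on simulated data. A call is a Benjamini-Hochberg adjusted p under 0.05 over all probe sets tested. Replicate numbers, from the titles, pair the arrays. With group means removed, the 21 same-number pairs correlated at 0.40 to 0.76, the 63 pairs of other groups and numbers at −0.54 to 0.22, and 15 of 15 arrays correlated best with their own number. The blocked value is therefore given where it changes a call.

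Members were named by gene symbol, every probe set of a gene being shown. For likeness, the 2 genes with the highest r were taken. Members and lists were chosen with earlier results of these data known. The lists were NF-kB subunits, IkB kinases and activators, IkB degradation, other feedback inhibitors, genes needing Nfkbiz, and markers of 5 cell types. Alternatives were the block, numbers 1 to 3, scaling, pseudocount, filter, variance trend, arrays fitted, 1 probe set a gene, and leaving out each array. Nfkb1 is not analysed here.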

Additional observations from a re-analysis of the deposited data

Results flagged for a closer look

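With the replicate number as a block, the change with both agonists differed from the sum of the single log2 changes on 2 Nfkbia probe sets. The interaction was −0.773 ± 0.093 (SE, adjusted p = 0.0145) on 1420088_at and −0.914 ± 0.125 (adjusted p = 0.0309) on 1438157_s_at. It was below 0 in 3 of 3 numbers on each. These are the Nfkbia probe sets with the highest mean signals, 12510 and 7345 over the arrays at 24 h. The part of signal level in this departure was not tested. Without the block neither was called (adjusted p = 1 for both). No array stood apart from its group by Dixon's criterion in any of the 36 groups of member values tested, where chance alone flags about 1 in 20. With at most 4 arrays a group this criterion finds only extreme values. It was applied to member values and does not bear on the marker differences of number 0.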

How the results depend on the processing

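With the replicate block, counts of called member probe sets went from 4 to 9 for anti-LTBR, from 6 to 10 for TNF, from 0 to 6 for the combination against TNF and against anti-LTBR, and from 0 to 2 for the interaction. Over all probe sets, the share called higher went from 0.143% to 1.89% for anti-LTBR and from 0.251% to 2.3% for TNF. It went from 0.00796% to 2.42% for the combination against TNF and from 0.263% to 1.91% against anti-LTBR. For the interaction the share called lower went from 0% to 0.0239%. Shares under the other settings below are not given, so their counts have no background beside them. On the member probe sets, the block with equal medians gave 9, 10, 6, 6 and 4. With 1 probe set a gene, where 5 member probe sets are tested, the counts were 1 for anti-LTBR, 3 for TNF and 4 for both agonists. With the median passed on all arrays they were 4, 4 and 6, since Bcl3, both Nfkbie probe sets and Nfkbiz 1457404_at then leave the test, and in a fit of only the groups compared 3, 4 and 7. For the combination against anti-LTBR, the numbers 1 to 3 alone and quantile normalization each gave 1. Leaving out 1 array in turn gave 4 to 6 for anti-LTBR, 4 to 7 for TNF, 8 to 9 for both agonists and 0 to 2 for the combination against anti-LTBR, and 0 throughout for the combination against TNF, for TNF against anti-LTBR and for the interaction. Of 2179 values of single probe sets under an alternative, 2087 kept their side of the threshold (58 of these changed sign without a call in either setting), 63 gained a call and 29 lost it, and no called value changed sign. At 2 h and 6 h, 7 differences crossed 2-fold under an alternative. A pseudocount of 1 brought Nfkbie 1431843_a_at with anti-LTBR at 2 h to 1.03, and quantile normalization Nfkbia 1438157_s_at with anti-LTBR at 6 h to 1. Equal medians took Nfkbiz 1417483_at with TNF at 2 h to 0.99 and Nfkbib with TNF at 6 h to 0.89. A pseudocount of 50 took Nfkbiz 1457404_at with TNF at 2 h to 0.97, Bcl3 with anti-LTBR at 6 h to 0.94 and Nfkbib with TNF at 6 h to 0.95. The low signals of Bcl3, Nfkbid and control Nfkbie limit their precision.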
